A study of Mus musculus with 6 samples.

Results

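The genes described here encode the enzymes that make, recycle and use glutathione, the thioredoxin system, the superoxide dismutases, the epoxide hydrolases, and NRF2 with its inhibitor KEAP1. They were chosen by gene symbol, as every gene whose platform symbol begins with Gst, Mgst, Gpx, Prdx, Txn, Gcl or Sod and a digit, together with Gsr, Gss, Nqo1, Srxn1, Ephx1, Ephx2, Nfe2l2 and Keap1. This gave 66 genes of the 18193 genes that had a probe set with 1 gene symbol. A gene was represented by its brightest such probe set, and 58 of the 66 genes were bright enough to be tested, among 12947 genes tested in all. Prdx1, Prdx5 and Prdx6, which belong to the peroxiredoxin family, had no probe set with their symbol alone and were not analysed here.

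Expression was measured on 6 Affymetrix mouse 430 2.0 arrays of total RNA from differentiated fat cells of the mouse inguinal depot, a white fat depot. The Control group held 3 samples whose effect label reads Non-activated, and the Rosiglitazone group held 3 samples labelled Beiging that had received 1 uM rosiglitazone for 4 days. This drug, a thiazolidinedione, activates the nuclear receptor PPARγ. The labels give no genotype, sex or age. They do not say whether samples of a group were grown separately, and a p-value here therefore reflects the spread between these samples, perhaps a technical one. Having 3 arrays per group limits the precision.

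Array medians lay between 44.46 and 46.66 intensity units and array maxima between 16947 and 17925. Within a group the log2 values of arrays correlated at 0.994 to 0.996, and between groups at 0.984 to 0.985. Fat cell markers were bright in both groups, with a summed intensity of 70714 to 71830 on control arrays and 72202 to 73402 on rosiglitazone arrays, and of 7 tested markers Cidec and Cd36 were higher and Lipe and Pparg lower. Fabp4, at 17647 ± 326 in control cells, lay near the array maxima, so this sum is a poor measure of the share of fat cells. Markers of other cells moved too. Of 15 tested macrophage markers 14 were lower, beside 35.7% of all genes tested. The marker sum was 17059 to 18437 on control arrays and 6253 to 6975 with rosiglitazone. All 11 tested markers of fibroblasts and preadipocytes were lower, with sums of 43919 to 44845 and of 22713 to 23737. The endothelial markers Pecam1, Cdh5, Kdr and Vwf were too dim to be tested, while Tek was lower. The part of these cells in the values below was not tested, and in bulk RNA fewer cells of a type and less RNA per cell cannot be told apart.

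Glutathione is a small tripeptide that keeps the cell interior reducing. Peroxidases use it to reduce peroxides and transferases attach it to reactive compounds, and glutathione reductase recycles it with NADPH. The thioredoxin system works beside it, with thioredoxins passing electrons from NADPH to peroxiredoxins and other proteins, and mitochondria hold their own forms of several of these enzymes. The transcription factor NRF2, encoded by Nfe2l2 and held back by KEAP1, binds antioxidant response elements in many of these genes.

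With rosiglitazone, several soluble glutathione transferases, the peroxidases Gpx1 and Gpx3 and the epoxide hydrolase Ephx1 fell to between 15.4% and 59.4% of control. The microsomal transferases, the 4 enzymes placed in mitochondria alone and glutathione synthetase and reductase rose, most of them by under 1.5-fold. Enzymes placed in mitochondria and elsewhere moved both ways, with Gstk1 and Gpx1 lower and Gpx4 and the reductase Gsr higher. A gene is said to have risen or fallen where its limma test gave an adjusted p under 0.05 (Benjamini-Hochberg over the 12947 genes), and a log2 change is the rosiglitazone mean minus the control mean of log2 intensity. Of the 58 genes, 22 rose, 21 fell and 15 did not pass the test. The share that rose was 37.9%, beside 23.5% of all genes tested, and the share that fell was 36.2%, beside 35.7%. Together 74.1% of these genes passed, beside 59.2% of all genes. The groups did not overlap for 43 of the 58 genes, with rosiglitazone on the upper side in 21 and on the lower side in 22, beside a share of 63.9% over all genes. Of the 43 genes that passed, 26 changed by under 1.5-fold. Changes of at least 1.5-fold were rises in 4 genes (6.90%, beside 5.17% of all genes) and falls in 13 genes (22.4%, beside 12.2%). No test of these shares was made.

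The direction of small changes depended on how the arrays were scaled. Median centring of the arrays raised the log2 changes by 0.12, moved the median of all genes from −0.05 to 0.07 and that of the 58 genes from −0.04 to 0.08, and turned the sign of 9 of the 58 genes. It gave 26 rises and 16 falls (44.8% and 27.6% of the 58, beside 35.1% and 25.3% of all genes). Quantile normalization gave 21 rises and 20 falls (36.2% and 34.5%, beside 30.4% and 29.1%). In all 3 scalings 21 genes passed as higher and 16 as lower, and 0 genes passed in opposite directions on the deposited and the centred scale. Values below are on the deposited scale unless another is named.

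**Figure D1:**
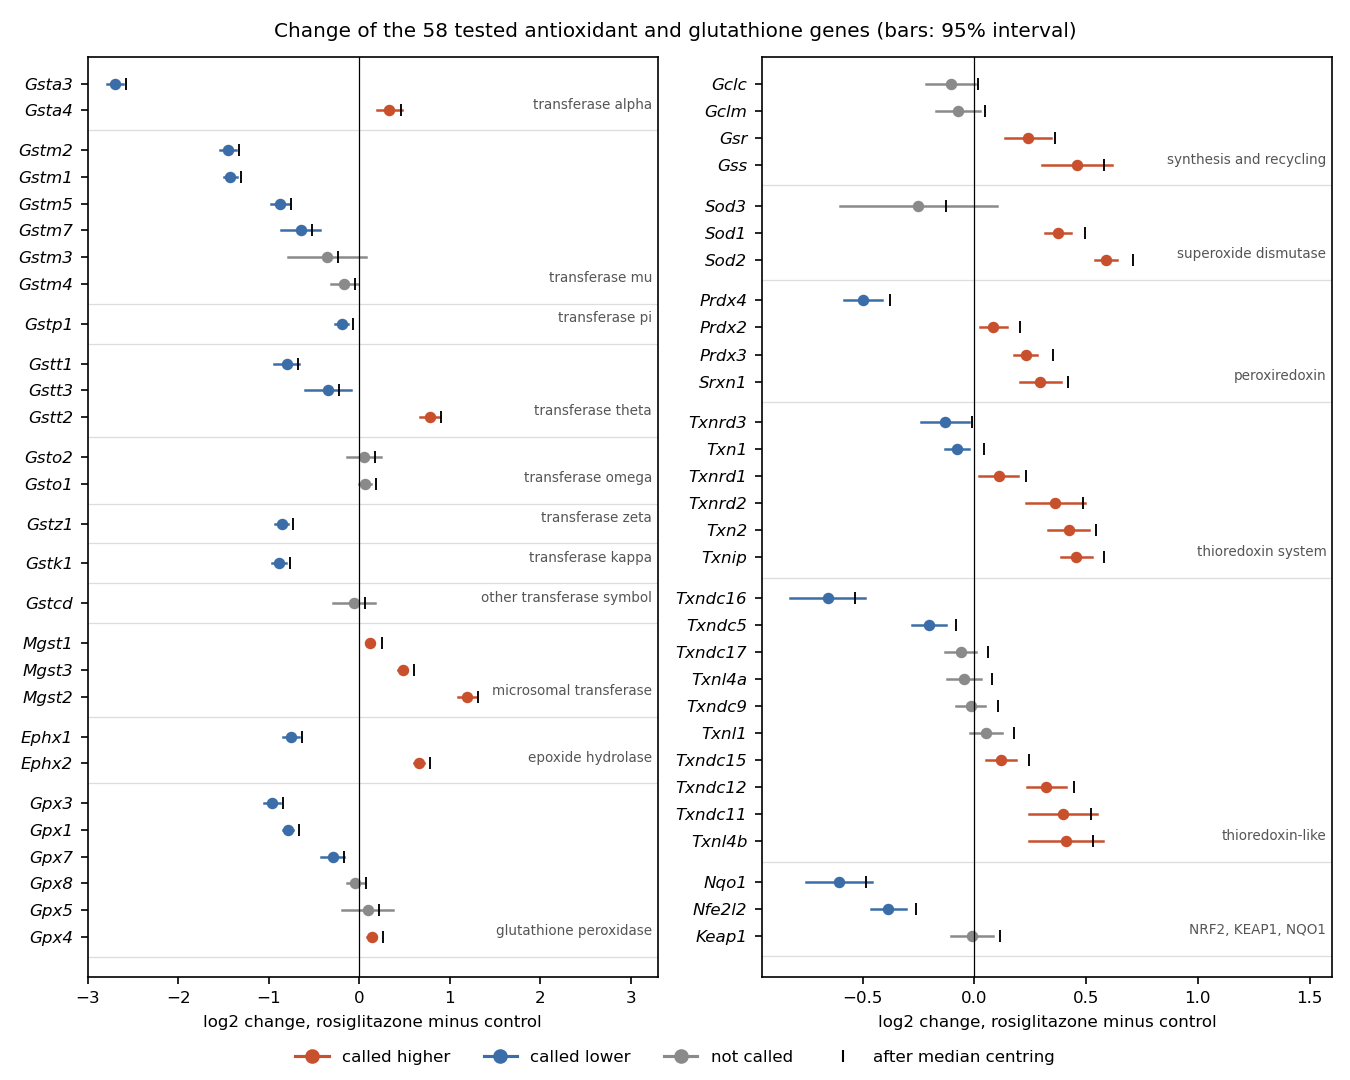
Log2 change with rosiglitazone (x axis, on separate scales in the left and right panels) for the 58 tested genes by class, with the 95% interval of limma as a bar, the colour showing the call at an adjusted p under 0.05 and a tick for the value after median centring. The changes run from −2.70 for Gsta3 to 1.19 for Mgst2, and the microsomal transferases lie to the right of 0 while the mu class transferases lie to its left.

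Promoter sequence was examined because NRF2 targets are found among these genes on both sides of 0. In RefSeq promoter windows of 300 bases around the start of transcription (build GRCm38.p6), the antioxidant response element core TGACNNNGC was searched on both strands. Its letters overlap with the AP-1 site TGACTCA, so a match can in general belong to either. No match in the genes described here holds TGACTCA. It was found in 12 of the 58 genes that had a window, tested or not (20.7%) and in 14.0% of the 27025 genes in the table. Matches occurred in 5 of 18 genes that rose, in 5 of 21 that fell and in 1 of 11 that did not pass. Among all tested genes with a window, 1744 of 10412 had a match, a larger share than among all genes in the table. A match is a description of letters and not a binding site, and genes with no match have only no such letters in this window. The PPAR response element was taken as an exact direct repeat of AGGTCA with a gap of 1 base. It was in 0 of these genes and in 0.0481% of the 27025 genes in the table. With matches this rare, 0 of 58 says nothing about PPAR sites in these genes. Of the genes with a match, Srxn1, Txnrd1 and Txndc11, which rose, Txndc5, which fell, and Txndc2, which was not tested, are not shown. Stretches of 120 bases that hold the core are shown for 4 genes that fell, 2 that rose and 1 that did not pass. They lie at chr1:21240408-21240527 (Gsta3, plus strand), chr3:107895734-107895853 (Gstm5, plus), chr3:107931680-107931799 (Gstm7, minus), chr2:75704794-75704913 (Nfe2l2, minus), chr6:138140407-138140526 (Mgst1, plus), chr16:90220642-90220761 (Sod1, plus) and chr3:122245367-122245486 (Gclm, plus). Each is written 5′ to 3′ in the direction of the gene, with the 9 bases of the match in capitals; the match reads in the gene's direction in the first 4 and on the opposite strand in Mgst1, Sod1 and Gclm.
Gsta3: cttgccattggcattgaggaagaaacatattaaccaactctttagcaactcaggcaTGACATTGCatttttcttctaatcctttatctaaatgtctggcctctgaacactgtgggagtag
Gstm5: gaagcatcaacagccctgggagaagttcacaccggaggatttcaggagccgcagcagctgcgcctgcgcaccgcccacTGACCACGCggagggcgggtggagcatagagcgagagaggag
Gstm7: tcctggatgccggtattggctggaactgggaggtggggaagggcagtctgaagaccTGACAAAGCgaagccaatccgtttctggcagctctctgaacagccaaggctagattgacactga
Nfe2l2: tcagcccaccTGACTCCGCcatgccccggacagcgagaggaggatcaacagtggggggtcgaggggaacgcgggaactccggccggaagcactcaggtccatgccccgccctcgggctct
Mgst1: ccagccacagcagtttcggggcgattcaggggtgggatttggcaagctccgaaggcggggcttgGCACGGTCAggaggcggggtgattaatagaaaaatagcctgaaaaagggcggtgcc
Sod1: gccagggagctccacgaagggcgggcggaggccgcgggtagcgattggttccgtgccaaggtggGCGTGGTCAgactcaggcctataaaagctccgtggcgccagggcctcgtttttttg
Gclm: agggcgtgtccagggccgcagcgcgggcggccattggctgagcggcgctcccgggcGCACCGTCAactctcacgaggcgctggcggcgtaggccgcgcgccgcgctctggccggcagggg

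The soluble glutathione transferases conjugate glutathione to electrophiles, and their classes fell unevenly. Of 16 tested genes of the named classes, 10 fell, 2 rose and 4 did not pass, with a median log2 change of −0.50. Over all genes tested 35.7% fell and 23.5% rose. On the centred scale 8 of the 16 fell and 3 rose, beside 25.3% and 35.1% of all genes. Gsta3, an alpha class transferase, changed most. Its intensity was 3188, 3226 and 3188 on the control arrays and 471, 490 and 523 on the rosiglitazone arrays (given here and below in the order of the replicate numbers). The groups lay far apart, with rosiglitazone at 15.4% of control and a log2 change of −2.70 (SE 0.04, limma adjusted p = 6e-17), which ranked 8 among the 12947 genes counted from the lowest. The other alpha class gene that could be tested, Gsta4, whose product handles the lipid peroxidation product 4-hydroxynonenal, went the other way. It read 499, 522 and 448 in control cells and 662, 613 and 577 with rosiglitazone, without overlap, a log2 change of 0.34 (SE 0.06, limma adjusted p = 0.000233).

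The mu class conjugates many foreign compounds and steroid-like substrates, and 4 of its 6 tested genes fell, beside 35.7% of all genes. Gstm1 read 3715, 3699 and 3706 in control cells and 1394, 1329 and 1426 with rosiglitazone. Gstm2 read 3004, 3042 and 2839 against 1145, 1080 and 1029. Both stood at 36.6% to 37.3% of control with no overlap, with log2 changes of −1.42 (SE 0.03, limma adjusted p = 6.77e-15) for Gstm1 and −1.45 (SE 0.04, limma adjusted p = 6.34e-14) for Gstm2. Gstm5 was tight in control cells at 1132, 1132 and 1130 and lower with rosiglitazone at 643, 629 and 582, a log2 change of −0.87 (SE 0.04). Gstm7 was dimmer, at 140, 155 and 180 in control cells and 96.8, 102 and 103 with rosiglitazone. Its log2 change of −0.65 (SE 0.10, limma adjusted p = 3.36e-05) is less certain, since a second probe set rose by 0.40 and the mean of both gave −0.12, which did not pass. Gstm3 and Gstm4 did not pass, at −0.36 (SE 0.20) and −0.17 (SE 0.07, limma adjusted p = 0.0529), and Gstm4 passed without Control replicate 3 (−0.22).

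These mu class genes are close copies of each other, and the brightest Gstm1 probe set is of a kind whose probes can bind related transcripts, so the split between the copies is uncertain. A second Gstm1 probe set, not of that kind, went from 3659 ± 43.0 to 1397 ± 80.4 (mean ± SD, n = 3), a log2 change of −1.39. In the reference gene order Gstm5, Gstm7, Gstm6, Gstm3, Gstm2, Gstm1 and Gstm4 are direct neighbours. Their changes in that order were −0.87, −0.65, not tested, −0.36, −1.45, −1.42 and −0.17.

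The theta class is a second run of neighbours in the reference gene order, Gstt3, Gstt1, Gstt4 and Gstt2, and it split. Gstt1, which acts on small halogenated compounds, read 458, 438 and 454 in control cells and 283, 248 and 245 with rosiglitazone, a log2 change of −0.80 (SE 0.06, limma adjusted p = 1.25e-08). Gstt2 read 352, 374 and 347 and then 622, 603 and 616, a rise of 0.78 (SE 0.05, limma adjusted p = 1.04e-09). Neither gene's groups overlapped. Gstt3 was at −0.35 (adjusted p = 0.0219), which did not pass without Control replicate 1 (−0.32), Control replicate 3 (−0.28) or Rosiglitazone replicate 2 (−0.32), nor on the centred scale (−0.22) or after quantile normalization (−0.28). Gstt4 was too dim to be tested.

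Of the single genes of other classes, Gstz1 and Gstk1 fell to about the same degree. Gstz1, the zeta class enzyme of tyrosine breakdown, read 3952, 4207 and 4241 in control cells and 2346, 2318 and 2178 with rosiglitazone, a log2 change of −0.86 (SE 0.04). Gstk1, the kappa class enzyme of mitochondria and peroxisomes, read 1693, 1713 and 1695 and then 906, 926 and 931, a log2 change of −0.88 (SE 0.04, limma adjusted p = 2.89e-12). Gstp1, the pi class enzyme, read 5681, 5590 and 5527 and then 4694, 4820 and 5211, a log2 change of −0.19 (SE 0.03, limma adjusted p = 0.000131) that did not pass on the centred scale (−0.07). The omega class genes Gsto1 and Gsto2, at 0.06 each, did not pass. Gsto1 passed as higher without Rosiglitazone replicate 1 (0.10) and on the centred scale (0.19), and stood at −0.02 after quantile normalization. Its second probe set passed as higher, at 0.11. Gstcd, at −0.06, did not pass and was at 0.07 on the centred scale.

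**Figure D2:**
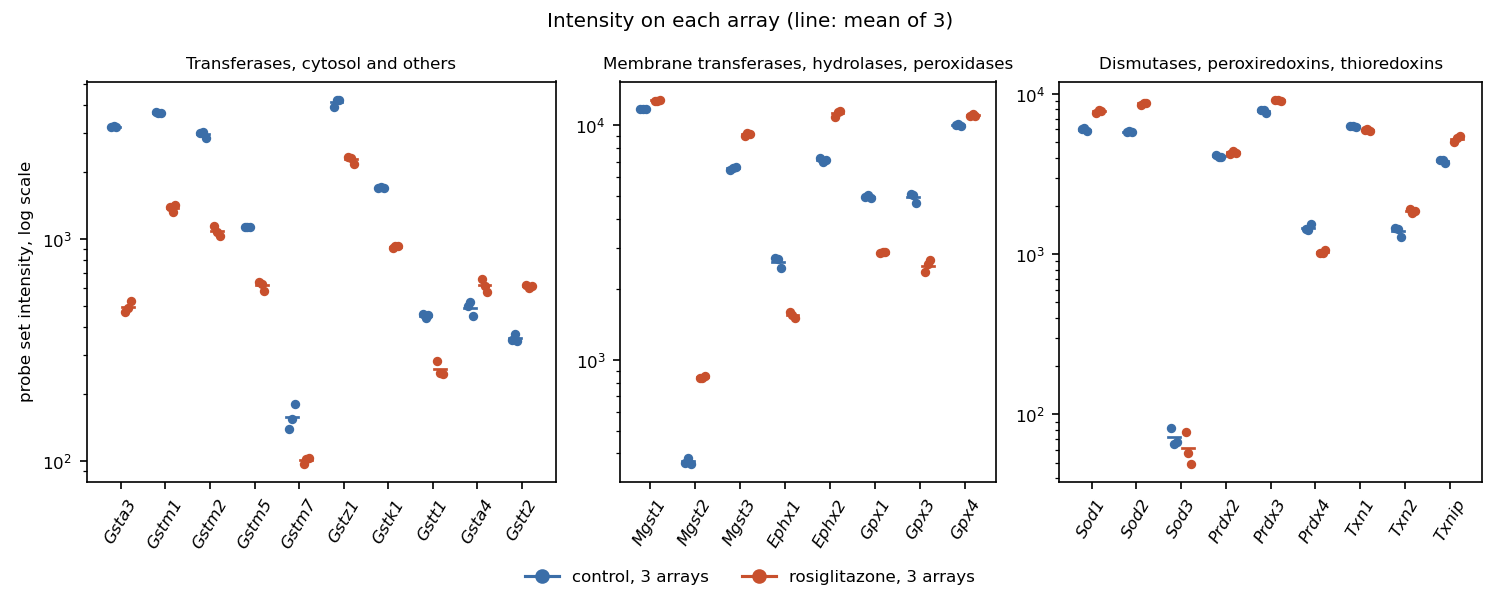
Intensity on each array (log axis, 3 control and 3 rosiglitazone arrays per gene, the line being the mean of 3) for 27 transferase, hydrolase, peroxidase, dismutase, peroxiredoxin and thioredoxin genes. The mean of Gsta3 drops from 3201 to 495 units while that of Mgst2 goes from 370 to 843, and of the genes drawn Sod3 has overlapping groups.

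All 3 microsomal glutathione transferases, membrane proteins of the endoplasmic reticulum with peroxidase or leukotriene C4 synthase activity, rose on all 3 scalings. The share of all genes that rose was 23.5% as deposited, 30.4% after quantile normalization and 35.1% on the centred scale. Mgst2 read 364, 384 and 361 in control cells and 840, 835 and 855 with rosiglitazone. This 2.28-fold rise (log2 1.19, SE 0.05, limma adjusted p = 2.46e-12) ranked 121 among all genes from the highest. Mgst3 read 6475, 6587 and 6627 and then 9052, 9256 and 9179, a log2 change of 0.48 (SE 0.02), and a dimmer second probe set rose by 0.95. Mgst1 was already among the bright signals at 11770, 11719 and 11709 and read 12765, 12741 and 12866 with rosiglitazone, a log2 change of 0.12 (SE 0.02, limma adjusted p = 5.19e-05). No groups of these 3 genes overlapped, which was also so for 63.9% of all genes tested.

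The epoxide hydrolases open reactive epoxides with water, and the microsomal and the soluble enzyme went opposite ways. Ephx1, the microsomal form that handles foreign epoxides, read 2734, 2683 and 2471 in control cells and 1605, 1563 and 1514 with rosiglitazone, a log2 change of −0.75 (SE 0.04, limma adjusted p = 9.72e-11). Ephx2, the soluble form that hydrolyses fatty acid epoxides, read 7251, 7012 and 7089 and then 10877, 11421 and 11534, a log2 change of 0.66 (SE 0.03, limma adjusted p = 2.51e-12). The groups did not overlap in either gene.

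Glutathione is made in a ligase step that limits the rate, by the catalytic subunit Gclc and the modifier subunit Gclm, and then by glutathione synthetase, Gss. The ligase subunits did not pass. Gclc read 598, 643 and 614 in control cells and 547, 571 and 608 with rosiglitazone, with overlapping groups and a log2 change of −0.10 (SE 0.05, limma adjusted p = 0.0931) that became 0.02 on the centred scale. Gclm read 1836, 1842 and 1622 and then 1720, 1684 and 1623, also overlapping, with a log2 change of −0.07 (SE 0.05) and 0.05 on the centred scale. Gclc passed without Rosiglitazone replicate 3 (−0.14) and Gclm without Control replicate 3 (−0.13).

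Gss and Gsr rose. Gss, which adds glycine to finish the tripeptide, read 260, 260 and 243 in control cells and 389, 347 and 315 with rosiglitazone. Its log2 change was 0.46 (SE 0.07, limma adjusted p = 4.82e-05), and its second probe set was at 0.62. Gsr, the reductase that regenerates glutathione, read 464, 474 and 442 and then 539, 538 and 552, a log2 change of 0.24 (SE 0.05, limma adjusted p = 0.000468). Its second probe set moved by 0.03 and did not pass, and the mean of both gave 0.14, which did. The groups of both genes lay apart.

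Of 6 tested glutathione peroxidases 3 fell and 1 rose, beside 35.7% and 23.5% of all genes. Gpx1, the abundant form of cytosol and mitochondria that reduces hydrogen peroxide, read 4931, 5050 and 4883 in control cells and 2858, 2875 and 2882 with rosiglitazone, a log2 change of −0.79 (SE 0.03, limma adjusted p = 5.47e-13). Gpx3, the secreted plasma form that fat tissue also makes, read 5090, 5029 and 4673 and then 2361, 2556 and 2661, a log2 change of −0.97 (SE 0.04, limma adjusted p = 7.73e-12). The groups did not overlap in either gene, and Gpx3 stood at 51.2% of control. Gpx4, which reduces lipid hydroperoxides in membranes and holds back ferroptosis, rose slightly, from 10066, 10159 and 9920 to 11014, 11158 and 10964, a log2 change of 0.14 (SE 0.02, limma adjusted p = 4.22e-05). Gpx7, a peroxidase of the endoplasmic reticulum, fell by 0.29 on the log2 scale (SE 0.06, limma adjusted p = 0.000362) and by 0.17 on the centred scale. Gpx8, of the same compartment, was at −0.04 (0.08 centred) and Gpx5 at 0.09, and neither passed.

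Superoxide dismutases turn superoxide into hydrogen peroxide, and the intracellular forms rose. Sod2, the manganese enzyme of the mitochondrial matrix, read 5796, 5838 and 5798 in control cells and 8588, 8818 and 8828 with rosiglitazone, a 1.5-fold rise (log2 0.59, SE 0.02, limma adjusted p = 2.78e-12). All 4 of its probe sets rose, by 0.50 to 0.67. Sod1, the copper and zinc enzyme of the cytosol, read 6046, 6122 and 5830 and then 7608, 7939 and 7786, a log2 change of 0.37 (SE 0.03, limma adjusted p = 3.7e-09). Its 4 tested probe sets ranged from 0.01 to 0.37, 2 of them passed, and the mean over them gave 0.24. Sod3, the secreted form, was dim at 82.7, 65.6 and 67.7 and then 77.4, 57.5 and 49.0. Its groups overlapped and its log2 change of −0.25 (SE 0.17, limma adjusted p = 0.21) did not pass, though it did without Rosiglitazone replicate 1 (−0.43). A dimmer second probe set was at 0.07 and did not pass.

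Peroxiredoxins reduce peroxides through a reactive cysteine, and sulfiredoxin, encoded by Srxn1, repairs that cysteine when it is over-oxidised. Prdx3, the mitochondrial form, read 7928, 7905 and 7614 in control cells and 9206, 9170 and 9100 with rosiglitazone, a log2 change of 0.23 (SE 0.02, limma adjusted p = 3.8e-07). Prdx4, of the endoplasmic reticulum, fell by 0.50 on the log2 scale (SE 0.04, limma adjusted p = 2.17e-08), from 1457 ± 67.2 to 1032 ± 21.8, and all 3 of its tested probe sets fell. These groups did not overlap. Prdx2, of the cytosol, was at 0.08 (SE 0.03, limma adjusted p = 0.0174), which did not pass without Control replicate 2 (0.07) or Rosiglitazone replicate 2 (0.07), nor after quantile normalization (0.05). Srxn1 read 832, 851 and 774 and then 1006, 1003 and 1006, a log2 change of 0.30 (SE 0.04, limma adjusted p = 1.98e-05). Its 4 probe sets ranged from −0.18 to 0.32, 2 of them passed as higher, and with their mean in place of the brightest the value was 0.17.

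In the thioredoxin system the mitochondrial thioredoxin and reductase rose. Txn2, the mitochondrial thioredoxin, read 1447, 1426 and 1287 in control cells and 1905, 1807 and 1858 with rosiglitazone, a log2 change of 0.42 (SE 0.04, limma adjusted p = 3.55e-07), and all 3 of its probe sets rose. Its reductase Txnrd2 read 250, 237 and 234 and then 326, 299 and 304, a log2 change of 0.36 (SE 0.06, limma adjusted p = 9.75e-05), with all 4 probe sets up by 0.32 to 0.57. Neither gene's groups overlapped. Txn1, the cytosolic thioredoxin, read 6312, 6323 and 6206 and then 5934, 6051 and 5875. The groups lay apart but close, with a log2 change of −0.08 (SE 0.03, limma adjusted p = 0.0127) that was 0.05 and did not pass on the centred scale and was 0.13 with the mean of its probe sets.

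Txnrd1, the cytosolic reductase, read 1606, 1798 and 1693 and then 1867, 1789 and 1837, with overlapping groups and a log2 change of 0.11 (SE 0.04, limma adjusted p = 0.0299). This did not pass without Control replicate 1 (0.07), Rosiglitazone replicate 1 (0.09) or Rosiglitazone replicate 3 (0.11). Txnrd3, a reductase best known from testis, was at −0.13 (SE 0.05, limma adjusted p = 0.0316), and did not pass on the centred scale (−0.01), after quantile normalization (−0.02), or without Control replicate 1 (−0.12), Control replicate 3 (−0.13), Rosiglitazone replicate 1 (−0.13) or Rosiglitazone replicate 2 (−0.12). Txnip, which binds and inhibits thioredoxin and restrains glucose uptake, read 3880, 3879 and 3726 and then 4991, 5325 and 5454, a rise of 0.46 (SE 0.03, limma adjusted p = 4.77e-09) without overlap.

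Of the 10 tested thioredoxin-like genes, whose products carry a thioredoxin fold with other partners, 4 rose, 2 fell and 4 did not pass. Over all genes tested 23.5% rose and 35.7% fell. The change of greatest size was the fall of Txndc16, a protein of the endoplasmic reticulum, from 272, 237 and 261 to 177, 159 and 153, a log2 change of −0.66 (SE 0.08, limma adjusted p = 2e-06) without overlap. Txndc5, a protein disulfide isomerase, was at −0.20 and did not pass on the centred scale (−0.08). The rises were in Txnl4b (0.41), Txndc11 (0.40), Txndc12 (0.32) and Txndc15 (0.12). Txnl1 was at 0.05, Txndc17 at −0.06, Txnl4a at −0.05 and Txndc9 at −0.02, and the last 3 had the opposite sign on the centred scale. There Txnl1 (0.18) and Txndc9 (0.11) passed as higher, and the class held 6 rises and 1 fall. After quantile normalization it held 4 rises and 3 falls. Txndc17 passed as lower without Control replicate 1 (−0.10) and after quantile normalization (−0.10). Of its 4 tested probe sets 1 passed, as lower at −0.20, and of 3 for Txndc9 1 passed, as higher at 0.22.

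The regulator, by its brightest probe set, and a classical target fell. Other NRF2 targets outside this set, given below, moved both ways, with 7 of 18 higher and 8 lower. The shares over all genes were 23.5% and 35.7%. Genes within the set moved both ways too, with Srxn1 (0.30), Gsr (0.24) and Txnrd1 (0.11) higher and Gsta3, Gstm1 and Ephx1 lower. Gclc and Gclm did not pass. Nfe2l2, which encodes NRF2, read 2504, 2739 and 2520 in control cells and 2013, 1955 and 1974 with rosiglitazone, a log2 change of −0.38 (SE 0.04, limma adjusted p = 1.53e-07) without overlap. A much dimmer second probe set, 49.7 ± 1.03 in control cells, was at 0.30 and did not pass, and the mean of both gave −0.04, which did not pass either. Nqo1, a quinone reductase widely used as a readout of NRF2, read 234, 251 and 248 and then 156, 167 and 158, a log2 change of −0.61 (SE 0.07, limma adjusted p = 1.16e-06), again without overlap. Keap1, the adaptor that sends NRF2 to degradation, read 881, 905 and 903 and then 941, 866 and 867. Its groups overlapped, and its log2 change of −0.01 (SE 0.04, limma adjusted p = 0.868) was 0.11 on the centred scale, where it passed (adjusted p = 0.0314). On the deposited scale a dimmer second Keap1 probe set was at −0.20 and the mean of both at −0.105, and neither passed.

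Grouped by compartment, the 4 genes of enzymes found only in mitochondria, Sod2, Prdx3, Txn2 and Txnrd2, all rose, with a median log2 change of 0.39, beside a median of −0.05 over all genes. They also rose after quantile normalization and on the centred scale. Of 29 tested genes of cytosolic enzymes 8 rose and 11 fell (27.6% and 37.9%, beside 23.5% and 35.7% of all genes), with a median of −0.07. On the centred scale the balance turned, with 12 higher and 8 lower (41.4% and 27.6%, beside 35.1% and 25.3%). Of 11 in the endoplasmic reticulum and secretory path 5 rose and 5 fell, and 5 and 4 on the centred scale. Of 3 tested genes of secreted enzymes Gpx3 fell and the other two did not pass. Enzymes placed in more than 1 compartment moved both ways, with Gpx4 and Gsr higher and Gpx1 lower among those of cytosol and mitochondria. Gstk1, placed in mitochondria or peroxisomes, fell (−0.88), opposite to the 4 mitochondrial genes.

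Relative changes of related genes were read within each array as a log2 ratio, which median centring does not affect. The pairs were chosen with the changes above known, so no test is given. The ratio of Txn2 to Txn1 rose by a mean of 0.50 and lay between 0.44 and 0.54 above the control mean on the 3 rosiglitazone arrays, while the control arrays ranged from −0.09 to 0.06. Txnrd2 against Txnrd1 moved by 0.25, with a control range of −0.10 to 0.14 and a rosiglitazone range of 0.22 to 0.30. The same comparison of a mitochondrial with a cytosolic form gave 0.21 for Sod2 against Sod1 and 0.14 for Prdx3 against Prdx2. Prdx3 against Prdx4, of the endoplasmic reticulum, moved by 0.73. Between other paralogs the differences were 3.03 for Gsta4 against Gsta3, 1.58 for Gstt2 against Gstt1, 1.42 for Ephx2 against Ephx1, 1.07 for Mgst2 against Mgst1, 0.92 for Gpx4 against Gpx1 and 0.36 for Mgst3 against Mgst1. With the mean of all probe sets Txn2 against Txn1 was at 0.33, Sod2 against Sod1 at 0.36 and Mgst3 against Mgst1 at 0.59. In glutathione supply Gss against Gclc was at 0.56 and Gsr against Gclc at 0.34, the latter 0.15 with the mean of all probe sets.

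**Figure D3:**
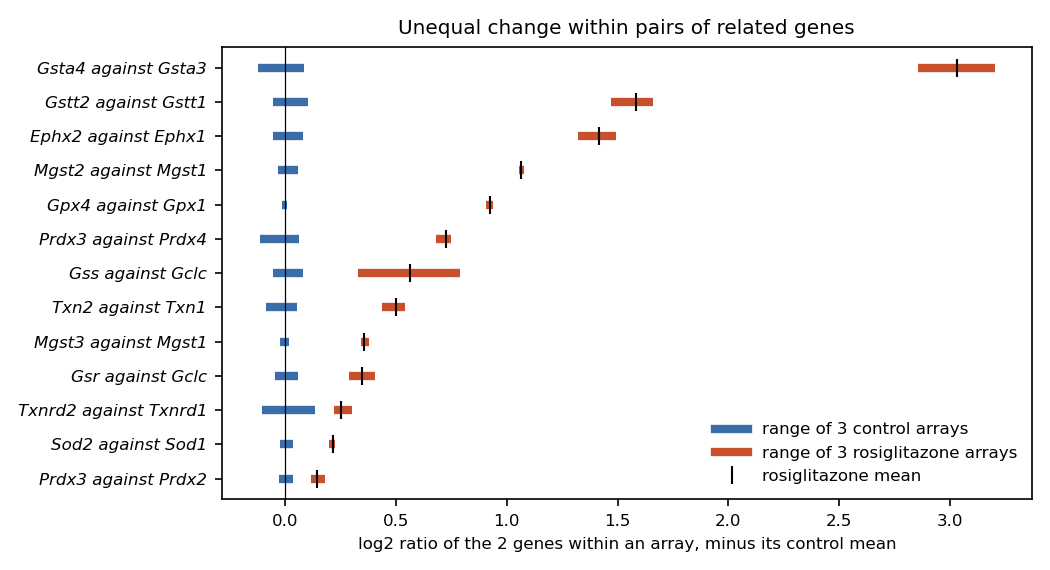
Log2 ratio of paired genes within an array, minus the control mean of that ratio (x axis), for 13 pairs, with bars for the range of the 3 control and of the 3 rosiglitazone arrays and a tick for the rosiglitazone mean. The mean runs from 0.14 for Prdx3 against Prdx2 to 3.03 for Gsta4 against Gsta3.

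Of 30 genes with several tested probe sets, 20 had the same sign in all of them. Gstm7 was the 1 gene whose probe sets passed in opposite directions. Both Gsta3 probe sets fell, with log2 changes of −2.70 and −2.85, and all 4 of Gstm1 fell, with changes from −0.27 to −1.53. The genes of mixed sign include Nfe2l2 and Srxn1, given above, and Txn1 and Gclc. The dimmer probe set of Txn1 was at 0.34 and the second of Gclc at 0.08, each opposite in sign to the brightest, and neither passed.

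**Figure D4:**
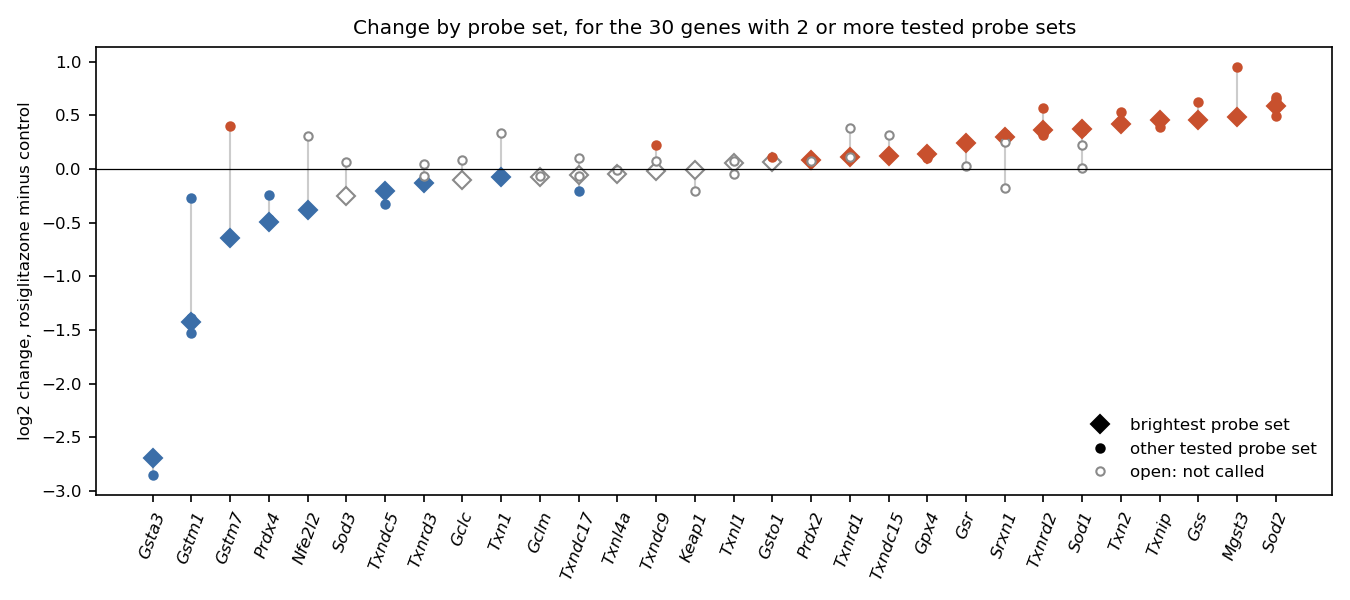
Log2 change of every tested probe set (y axis) for the 30 genes with several of them (x axis), with a diamond for the brightest probe set, circles for the others and open symbols where the adjusted p was 0.05 or more. Sod2 and Txnrd2 lie above 0 and Gsta3 and Gstm1 below 0 in all their probe sets, and Gstm7 has filled symbols at −0.65 and 0.40.

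Related pathways were read from lists of other genes. For each list the shares over all genes tested are 23.5% higher and 35.7% lower, and 35.1% and 25.3% on the centred scale. Among genes of glutathione supply and breakdown 14 of 20 could be tested, and 5 rose and 6 fell, with a median log2 change of −0.09, and 6 rose and 6 fell on the centred scale. Cbs, which leads homocysteine towards cysteine, fell from 558, 496 and 555 to 81.2, 87.4 and 82.1, a log2 change of −2.68 (SE 0.07, limma adjusted p = 2.83e-14). Dpep1, a membrane dipeptidase that cleaves products of glutathione breakdown, fell by 0.88 and the aminopeptidase Anpep by 0.72 on the log2 scale. Slc7a11, the cystine transporter that supplies glutathione synthesis, was dim at 36.5 ± 5.55 and 32.9 ± 6.47 and did not pass (−0.16).

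Among 15 tested genes of NADPH supply 5 rose and 3 fell, with a median of 0.00, and 8 rose and 2 fell on the centred scale. The falls of greatest size were Aldh1l1, a folate enzyme that makes NADPH, from 6200 ± 59.3 to 1596 ± 11.3 (log2 −1.96, SE 0.03, limma adjusted p = 2e-17), and Nnt, the mitochondrial transhydrogenase, at −0.77. Pgls, of the pentose phosphate path, rose by 0.32. G6pdx, which starts that path, had no probe set with its symbol alone and was not analysed here.

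Of 18 other tested NRF2 target genes 7 rose and 8 fell, with a median of −0.07, and 8 rose and 6 fell on the centred scale. The efflux pumps Abcc4 and Abcg2 rose by 1.32 and 0.56 and biliverdin reductase Blvra by 0.66. Hmox1, haem oxygenase, was at −0.25 (SE 0.07, limma adjusted p = 0.00664), which did not pass on the centred scale (−0.13). Nqo1, in the set itself, fell as given above. Of 14 tested partners of NRF2 and KEAP1 5 rose and 4 fell, while 6 rose and 1 fell on the centred scale, where Mafk, Cul3 and Dpp3 no longer passed as lower. Nfe2l3, a relative of NRF2, read 16.4, 13.7 and 16.8 in control cells and 57.0, 50.7 and 54.2 with rosiglitazone. Its control values lay at about the floor of 16 and it was bright enough to be tested through the rosiglitazone arrays alone, so no size is given for its rise. It is 1 of the 5 rises, and of the 6 on the centred scale, so these counts rest in part on the filter. Brca1, which binds NRF2, was at 0.96. The BACH repressors, of the same family of factors, split. Bach2 was dim, at 45.8 ± 6.13 in control cells, and rose by 0.44. The brighter Bach1, at 1066 ± 52.3, fell by 0.39 on the log2 scale, and was the 1 partner lower on the centred scale (−0.27).

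Of 28 other antioxidant proteins 7 rose and 13 fell, with a median of −0.09, and 10 rose and 10 fell on the centred scale. Sesn1, a stress-induced sestrin, fell by 1.02 on the log2 scale, Ptgr1, a prostaglandin and alkenal reductase, fell by 0.98, and glutaredoxin Glrx rose by 0.80. Catalase, Cat, which removes hydrogen peroxide in peroxisomes, read 8062, 8075 and 8137 and then 8122, 8001 and 8215, with a log2 change of 0.00 (SE 0.02, limma adjusted p = 0.903) on the deposited scale and 0.13 on the centred scale, where it passed.

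Enzymes that produce oxidants were lower for the most part. Of 11 tested, 8 fell and 2 rose, with a median of −1.09, and 8 fell and 3 rose on the centred scale. Maob, a monoamine oxidase that releases hydrogen peroxide, fell from 1079 ± 25.6 to 312 ± 20.7 (log2 −1.79). The NADPH oxidase subunits of phagocytes fell too, with Ncf1 at −1.41 and Cyba, shared by several NADPH oxidases, at −1.09. Ncf4 read 64.7, 55.5 and 65.4 in control cells and 19.5, 27.5 and 24.4 with rosiglitazone, a mean under the filter of 26.7, so no size is given for its fall. It is nevertheless counted among the 8 falls and in the median of −1.09, which rest in part on the filter. Nox4, the oxidase of fibroblasts and fat cells, read 268, 255 and 299 and then 124, 121 and 124, a log2 change of −1.16 (SE 0.08, limma adjusted p = 1.54e-09). These oxidase genes moved with the macrophage and fibroblast markers whose sums are given above, and the part of those cells was not tested.

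The remaining 8 genes, Gpx2, Gpx6, Gsta2, Gstm6, Gstp3, Gstt4, Txndc2 and Txndc8, were too dim to be tested. Their mean intensities lay at or under 30.4 in control cells and at or under 23.2 with rosiglitazone. No change is given for them.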

How the data were processed

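Total RNA of 3 control and 3 rosiglitazone samples was hybridised as biotinylated cRNA to Affymetrix arrays, per the labels. Groups come from the sample titles, since the treatment protocol names rosiglitazone for every sample. The values are the authors' deposited intensity per probe set on a linear scale, already brought to a common level; the software behind them is not stated here. Directions near 0 therefore depend on the scaling.

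Of 45101 probe sets, 64 controls were left out, 34945 had 1 gene symbol in the platform annotation, 932 had several and 9160 had none listed. The reference gene table changed 0 symbols. Values under 16 were set to 16 and log2 was taken. The lowest 40% of probe sets by mean log2 (under an intensity of 26.7) were left out, and the brightest probe set with 1 symbol stood for a gene. The comparison used limma 3.58.1 under R 4.3.3 (lmFit, eBayes with a variance trend, two-sided), tested on simulated data first. With 3 against 3 the smallest exact permutation p is 0.1.

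The genes, classes, lists and alternatives were chosen with earlier results of these data known. Values on every array are given for genes that changed by at least 1.5-fold and for a set of central enzymes whatever their values. Of each list, the 3 largest changes that passed and a few fixed genes are named. Bach1 was added beside Bach2. The alternatives were 2 scalings, log2(value + 1), a floor of 64, 3 filters on low values, 2 probe set rules, 3 variance or weight models, a replicate block, 2 thresholds and each array left out.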

Additional observations from a re-analysis of the deposited data

How the results depend on the processing

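Over 21 alternatives, 1106 of 1213 single log2 changes of the 58 genes kept their direction and their side of the threshold, 66 lost the call, 18 gained it and 23 turned sign, and 15 genes were the same under all alternatives that could be run for them. Against a 1.5-fold change (limma's treat) 3 genes rose and 10 fell. No share over all genes was taken for this test, the replicate block or the left-out arrays. These counts can therefore not be read against all genes. As deposited, called changes of at least 1.5-fold were rises in 5.17% and falls in 12.2% of all genes. The median of the 58 genes was 0.024 after quantile normalization and 0.079 after median centring. Leaving out 1 array gave 21 to 22 rises, 19 to 22 falls and medians of −0.05 to −0.01. The replicate numbers did not pair the samples (correlations of deviations of −0.02, −0.02 and 0.06), and a replicate block gave 22 rises and 22 falls, adding Gstm4 alone. After quantile normalization the sign turned for Keap1 (0.092), Gpx8 (0.026), Gstcd (0.032), Txndc9 (0.037), Txnl4a (0.022) and Gsto1 (−0.024). After median centring it turned for Keap1 (0.113), Gpx8 (0.081), Gstcd (0.065), Gclc (0.018), Gclm (0.048), Txn1 (0.045), Txndc17 (0.062), Txndc9 (0.106) and Txnl4a (0.077). With the mean of probe sets Txn1 was at 0.129 and Txndc9 at 0.091, and without probe sets whose names mark shared probes Gclc was at 0.081 and Txndc9 at 0.071. With 1 array left out Keap1 ranged from −0.049 to 0.010, Gstcd from −0.157 to 0.000 and Gsto2 from −0.015 to 0.097. The cause of these turns was not tested; except for Txn1, none of these genes passed the test as deposited. Signal over background limits Sod3, Gstm3 and the 8 genes too dim to be tested, and only 3 arrays a group limit all values.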
